A study of Homo sapiens with 2 samples.

Results

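The transcription factor ATF4 and the genes of its amino acid stress response were read on 2 expression arrays, 1 of cells made to overexpress melanotransferrin and 1 of vector control cells. The 35 genes were listed by function: stress factors and their feedback regulators, enzymes of serine, one-carbon and amino acid metabolism, amino acid transporters, and a few further targets. Every probe set annotated to exactly 1 of these genes was used, which gave 74 of the 54675 probe sets and values for all 35 genes out of 19775. Both arrays carried total RNA of SK-N-MC, a human tumour line that the submitters call a neuroepithelioma and that is now assigned to the Ewing family. The MTf clone, labelled hyper clone 4, was stably transfected with the cDNA of human melanotransferrin (MTf), a membrane-bound relative of the iron carrier transferrin, in the vector pCMV-Script. The vector control, labelled number 1, carried pCMV-Script with no insert given. Each group is thus 1 stable line read on 1 array, so no value has a replicate SD, the groups could not be compared by a test, and differences between lines and effects of the insert cannot be told apart.

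The integrated stress response begins with kinases that phosphorylate the translation factor eIF2 when amino acids run short, unfolded protein builds up in the endoplasmic reticulum, haem is lacking or double-stranded RNA is present. General translation slows while ATF4 mRNA is translated better, so that much of ATF4's control lies above the level of its mRNA. ATF4 then binds composite C/EBP-ATF sites with partners of the C/EBP family and raises genes that make and import amino acids, together with DDIT3 (CHOP), TRIB3 and PPP1R15A, which shape or end the response.

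The listed transcripts of this response read lower in the MTf clone as a group. The list was chosen with earlier results of these data known, so the shares below describe this list and not the response at large. Of 15 measured ATF4 or CHOP targets outside it, 8 were lower and 7 higher. By the brightest probe set of each gene, 31 of 35 genes were lower in the clone than in the vector control and 4 were higher. All 12 stress factors and all 11 enzymes were lower, whereas 5 of 8 transporters were lower and 3 were higher. The median log2 ratio of the 35 genes, clone over control, was -0.43, against -0.022 over the 12663 genes measured on at least 1 array. Among the 10795 genes above the background floor on both arrays, as all 35 were, 48.8% were lower. The clone was at least 1.5-fold lower for 13 of the 35 genes (37.1%), against 5.92% of the genes above the floor on both arrays, and at least 1.5-fold higher for 1, against 5.27%. At 2-fold the counts were 2 lower and 1 higher, where the same genes gave 1.16% lower and 1.11% higher. Of the 64 member probe sets that passed the floor on each array, 52 (81.2%) were lower in the clone, against 51.2% of all such probe sets. In bulk RNA, fewer cells that make a transcript and less of it per cell cannot be told apart.

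Signals are the deposited linear values, and log2 ratios are those of the clone over the control. The floor was a signal of 208, the 90th percentile of 191 probe sets for olfactory receptors, taste receptors and hair keratin-associated proteins. Each gene is given by its brightest probe set (by the mean of both arrays). No measure of error between lines or arrays was available. The disagreement between probe sets of the same gene had a pooled SD of 0.35 on the log2 scale over 5387 genes. This SD was 0.40 where the dimmest probe set read under 500 and 0.21 where it read over 2000. It compares probe sets on the same arrays and so holds no variation between lines, cultures, RNA preparations or arrays. It is therefore no noise limit for the difference between clone and control. As a mark of size only, 22 of the 35 genes were lower by more than 0.35, CEBPG by the least of these at -0.36. Of all genes above the floor on both arrays, 13.5% had a lower ratio than CEBPG. Directions are only relative to all genes. Centred on the 18 hybridisation spike-in probe sets, the median of all genes was 0.48 and that of the members 0.072, with 14 members below 0. Centred on the 24 poly-A spike-in probe sets, the medians were -0.63 and -1.04, with 34 members below 0. Each centring moves all genes by the same amount. The count of members below the median of all genes, 30 of 35, could therefore hardly change and is no check.

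The melanotransferrin gene checks the labels: 1 of its 4 probe sets read 4449.4 in the clone and 18.4 in the control, at least 21.4-fold higher. The other 3 read 209.3, 125.5 and 10.8 in the clone and 245.8, 64.4 and 19.2 in the control. Probe sets for background genes had a median of 44.0 on the clone array and 67.4 on the control array. For ACTB, the ratio of the 3' to the 5' control probe set was 1.44 on the clone array and 1.21 on the control array. Of the 10 Ewing family markers looked for, 9 had a single-gene probe set and all 9 were above the floor on both arrays, with summed signals of 133869 in the clone and 115691 in the control. The 8 fibroblast markers were also above it, at a summed 49144 in the clone and 51042 in the control, whereas 4 of 5 hepatocyte, 3 of 5 endothelial and 3 of 5 epithelial markers were below it on both arrays. So were 3 of the 4 leukocyte markers with a probe set, PTPRC being the exception. No marker read 0. The part of these differences between the arrays in the results below was not tested.

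**Figure D1:**
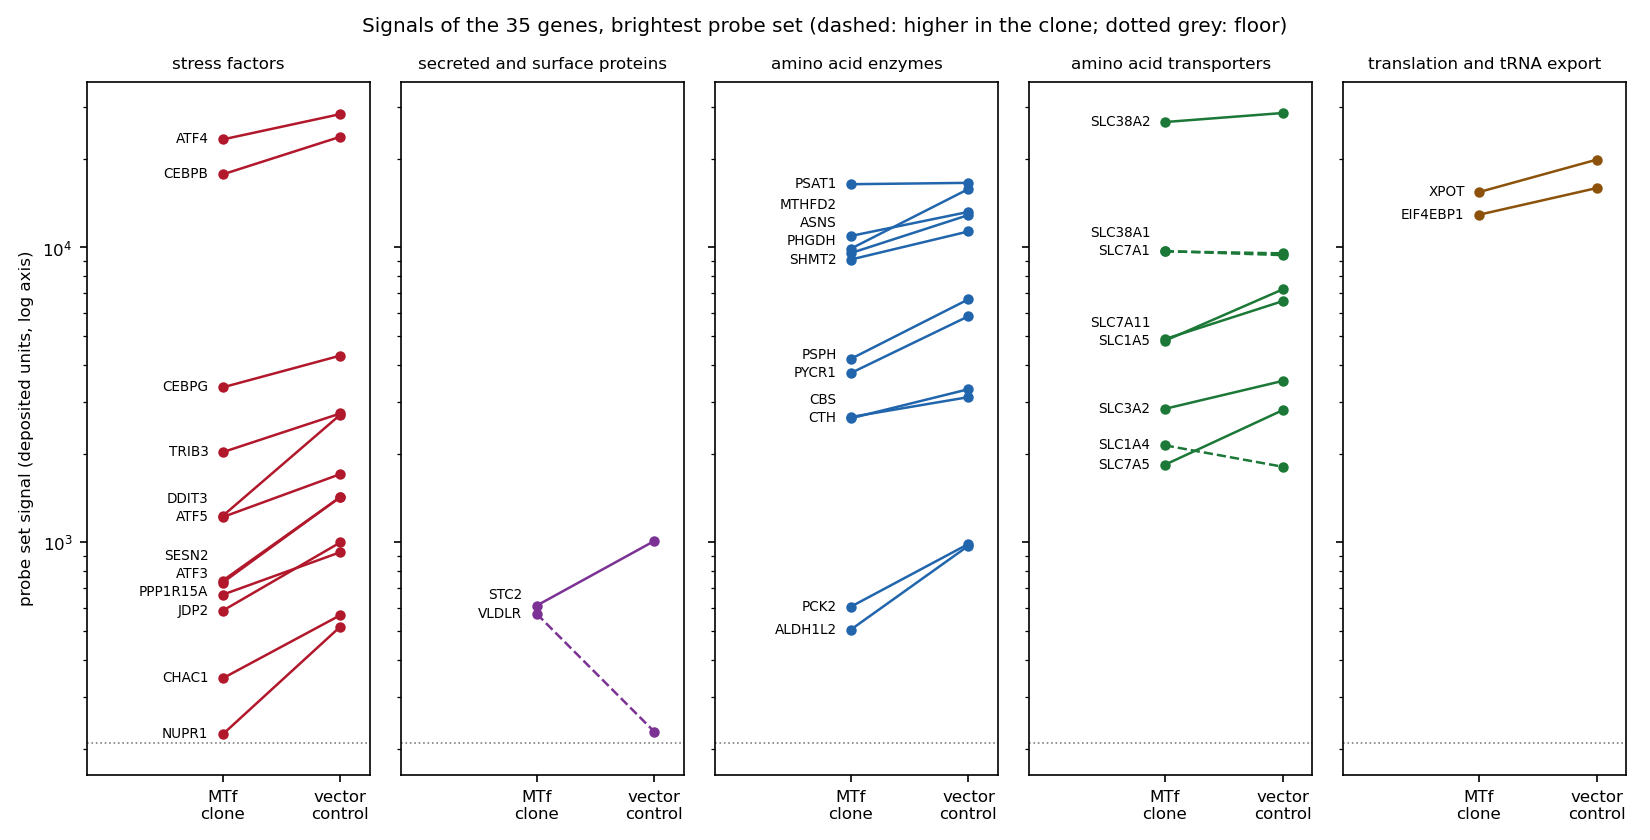
Probe set signals of the 35 genes on a log axis, as scaled by the submitters, in the MTf clone (left) and the vector control (right), with 1 line per gene and 1 panel per role. Lines rise to the right for the 31 genes that were lower in the clone, and the 4 dashed lines, VLDLR the steepest, fall to the right.

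Promoter windows from RefSeq (GRCh38.p14, 250 bases before to 50 after each annotated start) were at hand for 28 of the 35 genes, 48 windows in all. They were searched on both strands for TGATGNAA, the core of the C/EBP-ATF site. It was found in 10 of the 28 genes (35.7%), against 4.46% of the 27305 genes in the table, and in 3.62% of its 35116 windows. The members were listed as targets of ATF4, so a high share was built into the list. The median log2 ratio was -0.47 for the 10 genes with the letters and -0.43 for the 18 without. The 4 windows below belong to the genes at least 1.5-fold lower in the clone that hold a match; each is written 5' to 3' on the gene's strand, with the match in capitals.
ATF3, chr1:212565157-212565456, plus strand: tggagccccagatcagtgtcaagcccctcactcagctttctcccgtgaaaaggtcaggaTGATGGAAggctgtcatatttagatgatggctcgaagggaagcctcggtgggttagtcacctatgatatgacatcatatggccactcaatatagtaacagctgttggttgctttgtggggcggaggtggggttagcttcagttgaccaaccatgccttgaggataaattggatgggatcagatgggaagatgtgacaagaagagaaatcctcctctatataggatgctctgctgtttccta
JDP2, chr14:75427772-75428071, plus strand: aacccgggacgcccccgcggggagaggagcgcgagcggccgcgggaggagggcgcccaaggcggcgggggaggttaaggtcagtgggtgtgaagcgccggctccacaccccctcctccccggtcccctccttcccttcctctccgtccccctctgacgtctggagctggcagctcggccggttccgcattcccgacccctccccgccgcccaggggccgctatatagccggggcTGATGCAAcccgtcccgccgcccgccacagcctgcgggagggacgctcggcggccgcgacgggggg
CHAC1, chr15:40953221-40953520, plus strand: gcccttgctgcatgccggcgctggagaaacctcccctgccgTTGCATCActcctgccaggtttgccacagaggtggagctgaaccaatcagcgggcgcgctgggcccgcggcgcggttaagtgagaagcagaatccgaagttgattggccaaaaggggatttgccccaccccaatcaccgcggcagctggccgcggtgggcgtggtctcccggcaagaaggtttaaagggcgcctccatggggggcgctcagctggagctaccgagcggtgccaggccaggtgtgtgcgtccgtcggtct
ASNS, chr7:97872359-97872658, minus strand: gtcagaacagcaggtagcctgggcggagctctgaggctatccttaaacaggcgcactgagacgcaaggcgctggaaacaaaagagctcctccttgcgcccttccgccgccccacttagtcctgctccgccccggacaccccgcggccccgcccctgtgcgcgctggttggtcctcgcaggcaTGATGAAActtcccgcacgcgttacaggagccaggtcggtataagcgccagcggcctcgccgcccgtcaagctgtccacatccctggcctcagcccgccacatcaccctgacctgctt
The match began 191 bases before the start in ATF3, 16 before it in JDP2, 209 before it in CHAC1 and 68 before it in ASNS. In CHAC1 it lies on the opposite strand and so reads TTGCATCA here. ATF3 and ASNS have another annotated start each in the table, and JDP2 has several, whose windows hold no match. The other 6 genes with a match were CEBPG, SLC1A5, SLC3A2, SLC38A1, SLC7A1 and SLC1A4, whose log2 ratios ran from -0.58 for SLC1A5 to 0.24 for SLC1A4. A match of letters is not evidence of binding, and no factor binding was measured.

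ATF4 itself, on chromosome 22, was bright on both arrays, with a signal of 23243.5 in the clone and 28338 in the control. It was thus 1.22-fold lower in the clone, a log2 ratio of -0.29. That size is below the pooled probe set SD of 0.35 and above the 0.21 of bright probe sets. Neither SD covers variation between lines or arrays, so the position of ATF4 against them says nothing about noise in this difference. DDIT3, the pro-apoptotic factor CHOP, read 1228.5 in the clone and 2711.9 in the control, 2.21-fold lower. Only 0.621% of genes above the floor on both arrays had a lower ratio than DDIT3. NUPR1, a small stress-induced chromatin protein, read 223.2 in the clone and 518.2 in the control and had the lowest ratio of the 35 genes at 2.32-fold lower. Its clone signal stood just above the floor. With the floor set 2 times as high, only a log2 bound of -0.32 remained for NUPR1.

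ATF3, a factor that ATF4 induces and that can repress other stress genes, read 730.4 in the clone and 1425.8 in the control, 1.95-fold lower. Its other probe set above the floor barely differed, at 388.9 in the clone and 401.3 in the control. The median over its probe sets was -0.51 on the log2 scale. ATF5 showed the opposite order: the brightest probe set read 1218 in the clone and 1704.7 in the control (log2 ratio -0.49), and a dimmer one 313.1 in the clone and 863.3 in the control (log2 ratio -1.46). ATF5, like ATF4, is translated through upstream reading frames when eIF2 is phosphorylated. The C/EBP partners were lower by less. CEBPB read 17691.1 in the clone and 23742.2 in the control, a log2 ratio of -0.42, and both probe sets for CEBPG were lower, at -0.36 and -0.39.

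Feedback regulators and effectors of the response were lower as well. SESN2, a sestrin that restrains mTORC1 and senses leucine, was the most even of them over its probe sets. It read 741.5 in the clone and 1424.7 in the control on one and 412.4 in the clone and 782.7 in the control on the other, log2 ratios of -0.94 and -0.92. Both of these probe sets can share sequence with other transcripts. JDP2, a repressor that pairs with JUN and ATF proteins, read 586.3 in the clone and 1000.1 in the control, 1.71-fold lower. Its second probe set, above the floor in the clone only, read 237.1 in the clone and 198.2 in the control and so went the other way. CHAC1, which degrades glutathione, read 345.8 in the clone and 566.7 in the control, 1.64-fold lower on its only probe set. TRIB3, a pseudokinase that inhibits AKT and ATF4, was lower on both probe sets, with log2 ratios of -0.44 and -0.55. PPP1R15A (GADD34), the phosphatase subunit that reverses eIF2 phosphorylation, was lower on both, at -0.48 and -0.38.

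**Figure D2:**
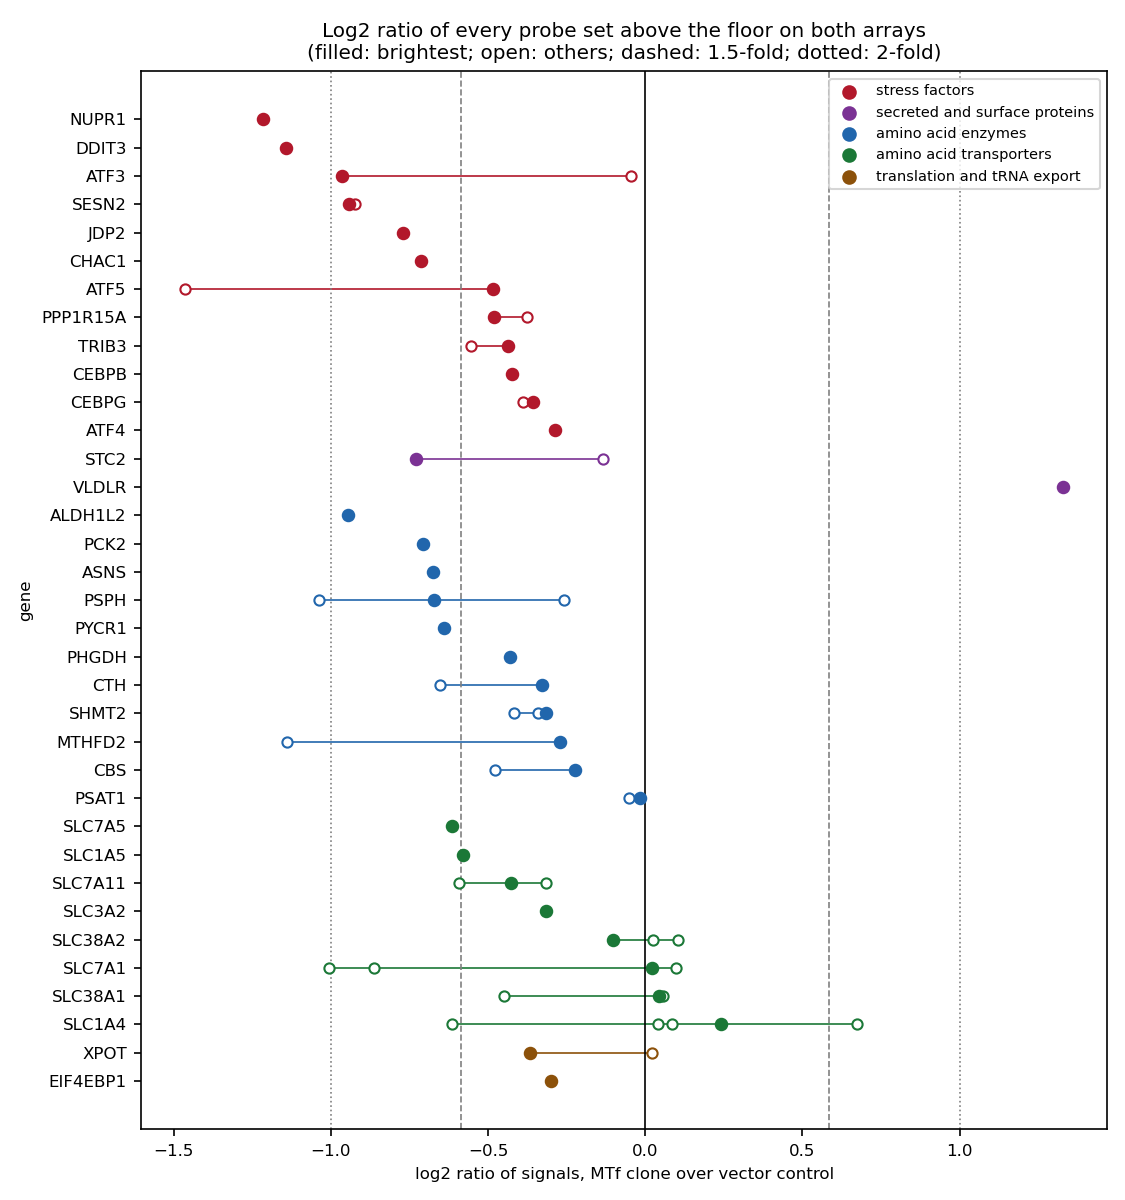
Log2 ratios of signals (clone over control, as scaled by the submitters) of the 64 member probe sets that passed the floor on each array, 1 row per gene, with the brightest probe set filled and the others open. SESN2, CEBPG, SHMT2 and PSAT1 have probe sets close together, while those of SLC7A1 and SLC1A4 spread over more than 1 log2 unit and lie on both sides of 0.

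The enzymes had a median log2 ratio of -0.43. In the clone 5 of 11 (45.5%) were at least 1.5-fold lower, against 5.92% of genes above the floor on both arrays. ASNS, asparagine synthetase and a classic ATF4 target, read 9898.9 in the clone and 15791.9 in the control, 1.60-fold lower. Its second probe set was below the floor on both arrays. ASNS was the brightest of the 13 genes at least 1.5-fold lower. PYCR1, a mitochondrial enzyme of proline synthesis, read 3749.1 in the clone and 5847.4 in the control, 1.56-fold lower. PCK2, the mitochondrial phosphoenolpyruvate carboxykinase, read 604.8 in the clone and 988 in the control, 1.63-fold lower.

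Serine is made from a glycolytic intermediate in a chain of PHGDH, PSAT1 and PSPH, and these neighbours in the pathway did not read alike. PHGDH, the first enzyme, read 9567.9 in the clone and 12884.5 in the control, a log2 ratio of -0.43. PSAT1, the transaminase that follows, read 16390.8 in the clone and 16565.5 in the control, and its other probe set 9572.5 in the clone and 9911.7 in the control, so that it hardly differed. PSPH, the phosphatase that ends the chain, read 4187.6 in the clone and 6674.4 in the control, 1.59-fold lower, and its 3 probe sets ran from -1.04 to -0.26 on the log2 scale. PSAT1 lies on chromosome 9, where 400 of the 445 genes measured on both arrays (89.9%) were higher in the clone and the median log2 ratio was 0.48. Only 9.46% of the other genes of that chromosome had a lower ratio than PSAT1. Over the genes of all other chromosomes the median was -0.0038.

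The mitochondrial one-carbon enzymes use serine to charge folate. SHMT2, which splits serine into glycine and a one-carbon unit, was lower on all 3 probe sets, with log2 ratios from -0.42 to -0.32. MTHFD2, the next enzyme, read 10938.8 in the clone and 13205.5 in the control, a log2 ratio of -0.27, while a dim probe set of shared sequence gave -1.14. ALDH1L2, which oxidises formyl-folate and makes NADPH, read 505.5 in the clone and 974.3 in the control. It was 1.93-fold lower, the largest difference among the enzymes, and a second probe set read 78.8 in the clone, below the floor, and 289.9 in the control. In transsulfuration, which turns homocysteine into cysteine, CBS had log2 ratios of -0.22 and -0.48 and CTH of -0.33 and -0.65, all lower in the clone.

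Of the 3 larger groups, the transporters stood closest to all genes, with a median log2 ratio of -0.21. At least 1.5-fold lower was 1 of 8 (12.5%), against 5.92% of genes above the floor on both arrays, and a count of 1 says little about the group. That 1 was SLC7A5, the light chain of the large neutral amino acid exchanger LAT1, which read 1831.8 in the clone and 2805.9 in the control, 1.53-fold lower. SLC1A5, the glutamine transporter ASCT2, lay just short of that size at 1.49-fold lower, with 4823.9 in the clone and 7205.2 in the control. SLC7A11, the cystine and glutamate exchanger xCT, was lower on all 3 probe sets, from -0.59 to -0.32. SLC3A2, the heavy chain that carries both SLC7A5 and SLC7A11 to the membrane, read 2836.1 in the clone and 3526.8 in the control, a log2 ratio of -0.31. The light and heavy chains of these exchangers were thus all lower in the clone.

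The remaining transporters did not differ in 1 direction. SLC38A2 (SNAT2), a sodium-coupled importer of neutral amino acids that starvation for amino acids induces in many cells, read 26628.6 in the clone and 28575.4 in the control, and its other 2 probe sets were slightly higher, at 0.10 and 0.024. SLC38A1, a related importer, read 9721.6 in the clone and 9423.1 in the control. SLC7A1, the cationic amino acid transporter CAT1, read 9702.1 in the clone and 9554.8 in the control on its brightest probe set and had 0.099 on the next, but -1.01 and -0.86 on 2 dim ones. SLC7A1 is on chromosome 13, whose 209 genes had a median log2 ratio of 0.14. SLC1A4 (ASCT1), which exchanges serine, alanine and cysteine, read 2134.2 in the clone and 1805.8 in the control, and its 5 probe sets ran from -0.61 to 0.67. On probe sets free of shared sequence the median of the transporters was 0.054 relative to all genes, so the direction of this group rests on the choice of probe sets.

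The secreted, surface and translation proteins complete the list. STC2, a secreted stanniocalcin, read 610.3 in the clone and 1011.6 in the control, 1.66-fold lower, and 331.5 in the clone and 363.8 in the control on a second probe set. EIF4EBP1, a repressor of cap-dependent translation, read 12907.9 in the clone and 15900.8 in the control, a log2 ratio of -0.30. XPOT, the exporter of tRNA from the nucleus, gave -0.37 on its brightest probe set and 0.023 on the other. VLDLR, a lipoprotein and reelin receptor, was the 1 member that was at least 1.5-fold higher. It read 572.7 in the clone and 227.9 in the control, 2.51-fold higher, on a single probe set of shared sequence. VLDLR lies on chromosome 9 like PSAT1, and its ratio was above those of 98.4% of the other genes there. Its control signal stood just above the floor; with the floor 2 times as high, a log2 bound of 0.46 remained. Without both chromosome 9 genes, 30 of 33 members were lower and the median was -0.44.

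Close relatives of some members, not on the list themselves, gave a contrast within most of the pairs formed. In 15 pairs of a member and a paralogue, 14 paralogues were above the floor on both arrays. The member had the lower log2 ratio in 11 of these 14 pairs and the higher in 3. Some members stand in more than 1 pair, and the pairs were picked after the values were seen. None of the 8 transporters was paired, nor was XPOT, although relatives of both were measured, so the count does not cover them. CHAC2, the constitutive relative of CHAC1, had a log2 ratio of 0.13 against -0.71 for CHAC1. STC1 had 0.44 against -0.73 for STC2, and PPP1R15B, the constitutive eIF2 phosphatase subunit, -0.038 against -0.48 for PPP1R15A. CEBPA and CEBPD had 0.17 and 0.12, against -0.42 for CEBPB. The exceptions were TRIB2, at -0.73 below TRIB3, MTHFD1, the cytosolic trifunctional enzyme, at -0.28 beside -0.27 for MTHFD2, and LRP8, at -0.22 far below VLDLR. SHMT1, the cytosolic relative of SHMT2, was below the floor on both arrays, at 80.2 in the clone and 180.8 in the control.

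**Figure D3:**
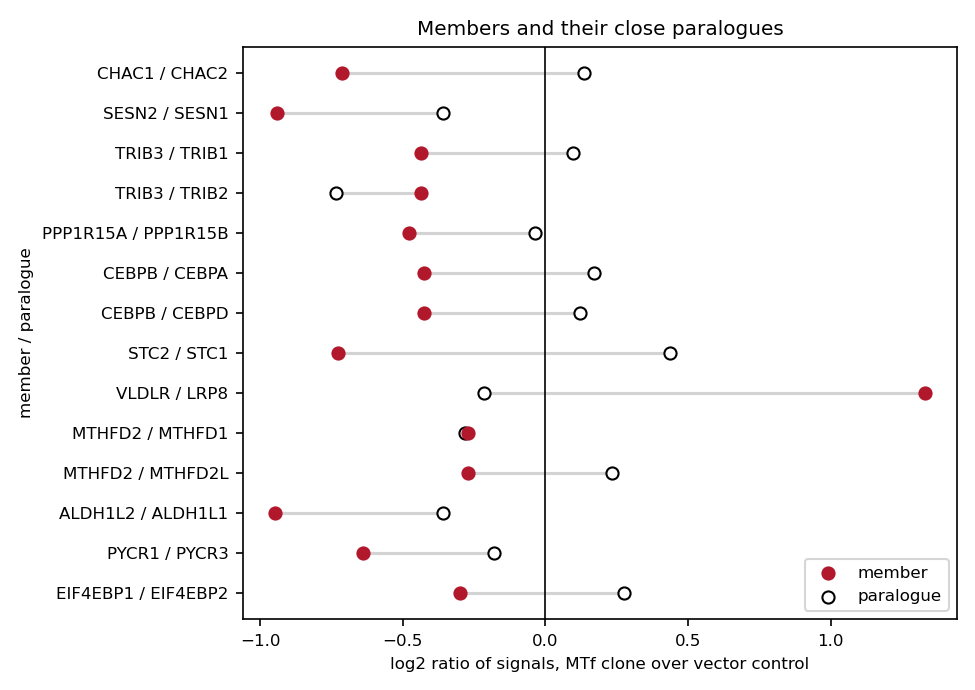
Log2 ratios of signals (clone over control, as scaled by the submitters) of members (filled) and close paralogues outside the list (open), 1 row per pair, for the 14 pairs above the floor on both arrays. The filled point lies left of the open one in 11 rows, and VLDLR stands apart on the right.

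Genes that act upstream of ATF4 had ratios spread about those of all genes. All 20 genes for eIF2 kinases, eIF2, its exchange factor eIF2B and their regulators were measured. Of these, 11 were lower and 9 higher, with a median log2 ratio of -0.017. At least 1.5-fold apart in either direction were 0 of 20, where 8.43% of measured genes were at least 1.5-fold lower and 5.38% higher. All 20 were above the floor on both arrays. Of such genes, 48.8% were lower, 5.92% at least 1.5-fold lower and 5.27% at least 1.5-fold higher. PERK (EIF2AK3), the kinase of endoplasmic reticulum stress, had 0.10, and GCN2 (EIF2AK4), that of amino acid shortage, -0.016. These are transcript levels, and phosphorylation was not measured.

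Other targets of ATF4 or CHOP were mixed in direction. Of 20 such genes 15 were measured, 8 lower and 7 higher, with a median of -0.013. At least 1.5-fold lower was 1 (6.67%), near the 8.43% of all measured genes. That gene was SLC6A9, the glycine transporter GlyT1, with 699.9 in the clone and 1565.5 in the control, 2.24-fold lower and more than any enzyme or transporter of the list. DDIT4 (REDD1), which restrains mTORC1 and also answers to hypoxia, was higher with a log2 ratio of 0.54. SLC7A3, a cationic amino acid transporter, read 248.9 in the clone and 139.7 in the control, below the floor, so that its log2 ratio of 0.26 is a bound. GDF15 and FGF21, stress hormones that ATF4 induces, were below the floor on both arrays. Of 17 measured cytosolic tRNA synthetases, several of which are ATF4 targets, 13 were lower with a median of -0.065 and 0 were at least 1.5-fold apart. Among genes above the floor on both arrays, as all 17 were, 48.8% were lower. Of those genes, 5.92% were at least 1.5-fold lower and 5.27% at least 1.5-fold higher. AARS1 had the lowest ratio at -0.41, SARS1 had -0.38 and WARS1 -0.33, while RARS1 had 0.52.

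Relatives of the enzymes and transporters were mixed. Among 9 measured enzyme relatives the median was -0.18, and GOT1, the cytosolic aspartate aminotransferase, was 1.54-fold lower, at 2193.8 in the clone and 3374 in the control. Among 10 measured transporter relatives the median was -0.047. SLC1A1, the glutamate transporter EAAC1, read 2.26-fold higher in the clone by its brightest probe set, at 1242.6 in the clone and 549.7 in the control, but a second read 165.4 in the clone, below the floor, and 318 in the control; this gene too lies on chromosome 9. Among 22 measured relatives of the factors the median was 0.060, and TRIB2 was 1.66-fold lower, at 1369 in the clone and 2275.1 in the control. ATF6B read 126 in the clone, below the floor, and 455.2 in the control, at least 2.19-fold lower, whereas another of its probe sets read 321.5 in the clone and 128 in the control.

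The chaperone arm of the unfolded protein response, which ATF6 and XBP1 drive, had the lowest median of the 7 other lists. Of 20 measured genes 17 were lower in the clone, with a median log2 ratio of -0.33. Of the 20, 4 were at least 1.5-fold lower by the brightest probe set (SDF2L1, PDIA4, MANF and HSP90B1). A second probe set fell short of that size for PDIA4, at a log2 ratio of -0.31, and for HSP90B1, at -0.20. Only 1, SDF2L1, was at least 2-fold lower, where 1.9% of measured genes were 2-fold lower and 1.21% 2-fold higher. All 20 were above the floor on both arrays. Of such genes, 48.8% were lower, 5.92% at least 1.5-fold lower and 1.16% at least 2-fold lower. MANF, a secreted neurotrophic factor of the endoplasmic reticulum, read 3852 in the clone and 6242.9 in the control, 1.62-fold lower, and XBP1 had a log2 ratio of -0.58. HSPA5 (BiP), the main chaperone of that compartment, had -0.090 and lies on chromosome 9. No difference between this list and the members was tested.

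**Figure D4:**
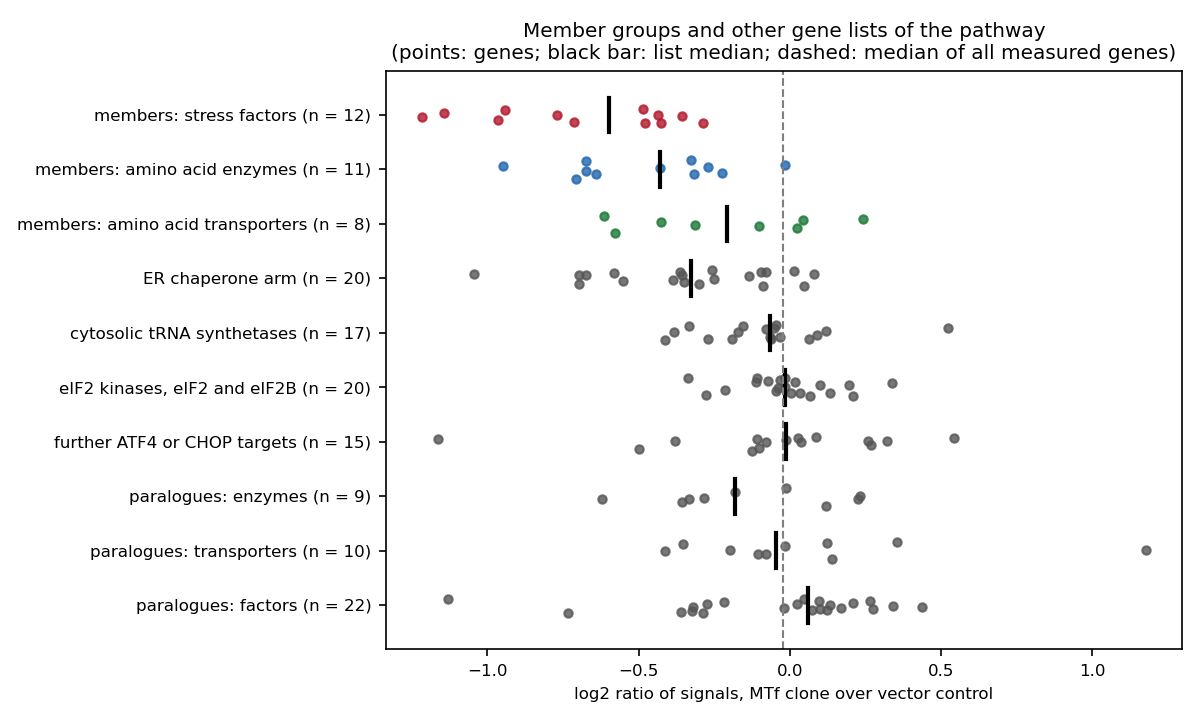
Log2 ratios of signals (clone over control, as scaled by the submitters) of the measured genes of 3 member groups and 7 other gene lists, with a black bar at each list's median and a dashed line at the median of all measured genes. The bars of the stress factors (-0.60), the enzymes (-0.43) and the chaperone arm (-0.33) lie farthest left, and those of the eIF2 genes (-0.017) and the further targets (-0.013) lie near the dashed line.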

How the data were processed

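Total RNA of 2 stably transfected SK-N-MC lines was hybridised to Affymetrix U133 Plus 2.0 arrays, 1 array per group, per the labels. The authors deposited linear intensity values, 1 signal per probe set and array, made with GCOS 1.3 per the submitters' processing notes. The summary method and the scaling target were not given in the sources used here, and no detection calls were used. Both arrays had a mean of 1000.12 after dropping the lowest and highest 2% of values, so a change of most transcripts alike cannot be seen.

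Genes were taken from the 2016 platform annotation (41097 probe sets with 1 symbol, 1801 with several, 11777 with none), with symbols updated by gene ID through RefSeq GRCh38.p14 (41043 matched). Genes that missed the floor on each array count as not measured; below it on 1, the ratio to the floor is a bound. No test was run, and precision is limited by having 1 array a group. Calls are by size, 1.5-fold and 2-fold. Named genes are all 35 members, with signals for those at least 1.5-fold apart or with opposed probe sets more than 1 log2 unit apart, genes of the other lists at least 1.5-fold apart, and paralogues; further genes and signals were named after their values were seen. Members and lists were chosen with earlier results of these data known. Probe sets whose names end in _s_at, _x_at or _a_at can share sequence with other transcripts. Computation used Python 3.11.15 (numpy 2.4.6, pandas 2.3.3, scipy 1.17.1), loess from statsmodels 0.14.6 and figures from matplotlib 3.10.9; the functions were tested on simulated data.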

Additional observations from a re-analysis of the deposited data

How the results depend on the processing

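The members' median relative to all genes was -0.41 as deposited and lay between -0.44 and -0.38 under the 8 alternatives run. Among these, the spike centrings move all genes alike and so could hardly alter a median relative to all genes. The medians of the stress factors and of the enzymes, also relative to all genes, kept their direction in all 8, as did that of the transporters except without probe sets of shared sequence, where it turned to 0.054; that setting measures 23 of the 35 genes. The counts depended on the scaling and on the probe sets and floor used. As deposited, 2 members were at least 2-fold lower and 1 higher (all genes: 1.9% and 1.21%). At least 1.5-fold lower were 13, and 1 was higher (all genes: 8.43% and 5.38%). Centred on hybridisation spikes, 0 were at least 2-fold lower (all genes: 0.253%). By 1.5-fold, 2 were lower and 2 higher there (all genes: 1.29% and 36.7%). Centred on poly-A spikes, 20 were at least 2-fold lower and 0 at least 2-fold higher (all genes: 15.5% and 0.103%). In that setting 32 were at least 1.5-fold lower (all genes: 55.9%). Without probe sets of shared sequence, 1 of 23 measured members was at least 2-fold lower and 0 higher (all genes: 1.76% and 1.34%). At least 1.5-fold lower were 7, and 0 were higher (all genes: 8.33% and 6.46%). ATF3, SESN2, NUPR1, ASNS, PYCR1, SLC7A5 and VLDLR have no value there, since all their probe sets above the floor are of shared sequence. Every gene at least 1.5-fold lower that kept a value in this setting kept its call. With the floor 2 times as high, 1 was at least 2-fold lower and 0 at least 2-fold higher (all genes: 0.465% and 0.703%). That floor left 11 at least 1.5-fold lower and 0 at least 1.5-fold higher (all genes: 3.84% and 4.62%). Without chromosome 9 genes, 0 were at least 2-fold or 1.5-fold higher (all genes: 1.01% and 4.15%), since VLDLR lies there. Among 17 named members, 89 of 128 values under the alternatives moved by less than the probe set SD of 0.35. None of the genes at least 1.5-fold apart changed direction under any of the 8 that gave it a value. For most settings this was fixed in advance. The hybridisation spikes, at a median log2 ratio of -0.50, shift ratios by less than the 0.585 of a 1.5-fold call. Poly-A spikes shift lower genes further down. Smaller ratios did turn: ATF4 went to 0.22 centred on hybridisation spikes and SLC1A4 to -0.37 centred on poly-A spikes. Of the 39 values that moved by more, 34 came from the spike scalings. Many of the 89 could not move, so their number is no measure of stability. Leaving out chromosome 9 does not alter genes elsewhere, and a floor per array does not alter ratios above it. The median over probe sets does not alter a gene with 1 probe set. With the median over a gene's probe sets, ATF3, JDP2 and SLC7A1 went to log2 ratios of -0.51, -0.29 and -0.42. No replicate could be left out and no paired analysis was possible because each group has 1 array.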
